A study of Mus musculus with 6 samples.

Results

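The genes described here are 10 members of the S100, annexin and galectin families: S100a4, S100a6, S100a10, S100a11, Anxa1, Anxa2, Anxa5, Anxa6, Lgals1 and Lgals3. They were taken by symbol from a table of 15601 genes, and all 10 were among the 10811 genes with enough counts to be tested. Expression was measured by RNA-seq in lymphocytes from mouse liver, which the series title calls type 1 innate lymphoid cells (ILC1s), the tissue-resident relatives of natural killer (NK) cells. Of the 6 libraries, 3 came from mice treated with tamoxifen, an oestrogen receptor ligand that also activates inducible Cre recombinases, and 3 from mice given corn oil, its vehicle. The series is about the nuclear receptor RORα. The sources used here do not give the animals' genotype, any Cre driver, strain, age, sex, dose or timing, nor the number of cells and animals behind a library, and the RNA protocol in the labels is worded for single cells. The p-values below therefore describe the scatter among libraries, part of which may be technical.

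S100 proteins are small calcium-binding proteins that bind target proteins when calcium rises. Annexins bind acidic phospholipids in a calcium-dependent way and take part in membrane repair, vesicle traffic and the linkage of membranes to the actin cortex, and several of them act as complexes with an S100 partner. Galectins bind β-galactosides on cell surface glycoproteins and can be secreted without a signal peptide. In lymphocytes, genes of all 3 families are known to be higher in effector and memory cells than in naive cells.

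All 10 genes were expressed in every library, and none of them differed between tamoxifen and oil beyond the spread between libraries. Lgals1 ranked 4th of the 15601 genes by mean FPKM (the authors' unit, scaled to library size and gene length), Anxa2 ranked 41st, and 9 of the 10 were among the first 1000. With edgeR, adjusted by Benjamini-Hochberg over all 10811 genes tested, 0 of the 10 passed at an adjusted p under 0.05, where 0.00925% of all genes passed. At an unadjusted p under 0.05 the count was again 0 of 10, where 3.52% of all genes passed (1.70% as higher and 1.82% as lower in tamoxifen). DESeq2, limma-voom and limma on log2 FPKM also called 0 of 10, with 0 of 10 at an unadjusted p under 0.05 in each. Over all genes DESeq2 called 0.167% at the adjusted and 3.65% at the unadjusted threshold. At the adjusted threshold limma-voom called 1 gene of the 10811 and limma on log2 FPKM 0. The share of all genes at the unadjusted threshold is not given here for limma. In the authors' deposited table the q-value of every member was 1. The estimate was higher in tamoxifen for 7 genes and lower for 3, where 49.5% of all genes tested had a higher estimate, and the median log2 fold change (tamoxifen over oil) was 0.06, against -0.0038 over all genes tested. The groups overlapped in 10 of the 10 genes, where 8.87% of all genes tested had groups that did not overlap.

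Library totals were 5289803 to 6325899 counts. In CPM (counts scaled to library size with TMM factors), 9 of 9 ILC1 and NK markers were counted in both groups, 3 with higher and 6 with lower estimates in tamoxifen, and Ncr1, which encodes NKp46, was the highest at a mean of 1241 CPM in tamoxifen and 1227 CPM in oil. In edgeR 0 of the 9 passed at the adjusted and 3 at the unadjusted threshold, all lower in tamoxifen and with groups that did not overlap. They were the liver ILC1 markers Cxcr6 (mean 131 CPM in tamoxifen and 364 CPM in oil) and Itga1 (14.5 CPM in tamoxifen and 33.2 CPM in oil), and the NK marker Itga2 (10.5 CPM in tamoxifen and 19.6 CPM in oil). Klrb1c was higher in tamoxifen, also with groups that did not overlap (944 CPM in tamoxifen and 787 CPM in oil, log2 fold change 0.26, SE 0.15). The other log2 fold changes were -0.51 for Tbx21, -0.07 for Eomes, -0.06 for Cd200r1, 0.02 for Ncr1 and 0.01 for Tnfsf10. Markers of other lymphocytes and of dendritic cells were present. T cell markers summed to 234 to 429 CPM in tamoxifen and 208 to 327 CPM in oil, B cell markers to 366 to 400 CPM in tamoxifen and 398 to 486 CPM in oil, and ILC2 and ILC3 markers, mostly Gata3, to 61.5 to 137 CPM in tamoxifen and 57.8 to 150 CPM in oil. Dendritic cell markers, mostly Itgax, summed to 104 to 149 CPM in tamoxifen and 150 to 264 CPM in oil, and in edgeR 0 of 4 tested passed at the adjusted and 3 at the unadjusted threshold, all lower in tamoxifen. These were Itgax, Zbtb46 and Xcr1, with log2 fold changes of -0.60, -1.76 and -2.48. Xcr1 had only 16 counts in tamoxifen and 93 counts in oil, and Zbtb46 37 and 128. The other gene tested, H2-Ab1, went the other way, at 12.6 CPM in tamoxifen and 9.67 CPM in oil (log2 fold change 0.38, SE 0.37). Clec9a and Siglech had no row. The part of these markers in the members' values was not tested. Neutrophil and macrophage markers were close to 0. Of 9 neutrophil markers only Ly6g was counted, with 0 counts in tamoxifen and 4 counts in oil. The 8 macrophage and Kupffer cell markers with counts summed to 1.15 to 9.44 CPM in tamoxifen libraries and 0 to 12.1 CPM in oil libraries, and Lyz2 averaged 0.461 CPM in tamoxifen and 1.43 CPM in oil. Of 6 stellate cell and fibroblast markers only Dcn was counted, at 0 to 2.48 CPM in tamoxifen and 0 CPM in oil. Hepatocyte markers summed to 23.9 to 35.2 CPM in tamoxifen and 13.9 to 21.6 CPM in oil, most of it Trf, and Alb averaged 0.309 CPM in tamoxifen and 0.104 CPM in oil. These are bulk libraries, in which fewer cells of a type and less RNA per cell cannot be told apart.

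The libraries were not alike. Across all genes tested, the level of a library relative to the mean of the 6 moved with gene length. Its slope, in log2 units per doubling of length, was -0.06, 0.05 and -0.06 in tamoxifen replicates 1, 2 and 3 and 0.04, 0.11 and -0.08 in oil replicates 1, 2 and 3, so that short genes were relatively high in oil replicate 3 and relatively low in oil replicate 2. Models of the members run from 511 to 4087 bases. Oil replicate 3 was the highest library for 7 of the 10 genes, and values without it are given below.

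**Figure D1:**
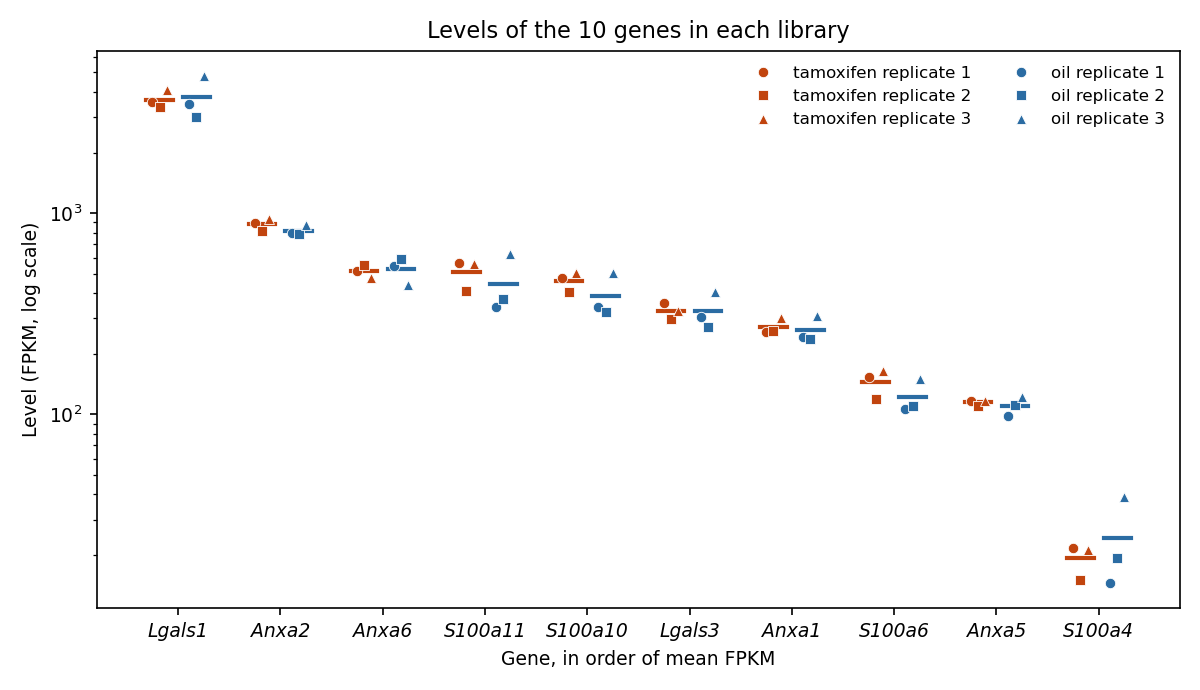
Level of each of the 10 genes in each library, in FPKM on a log axis, with genes in order of their mean over the 6 libraries; points are libraries, horizontal bars are group means, tamoxifen is in orange and oil in blue. Lgals1 lies at 2998 to 4797 FPKM, S100a4 at 14.6 to 38.7 FPKM, and the points of the 2 groups overlap for every gene.

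Per length, the 10 genes fell into an order that most libraries kept. Lgals1 averaged 3667 ± 368 FPKM in tamoxifen and 3765 ± 928 FPKM in oil (SD, n = 3 each). The ratio of Lgals1 to Anxa2 had a geometric mean of 4.33 over the 6 libraries. Anxa2 averaged 884 ± 62.6 FPKM in tamoxifen and 818 ± 44.6 FPKM in oil. Then came Anxa6, S100a11, S100a10, Lgals3, Anxa1, S100a6, Anxa5 and S100a4. This order was taken from the mean FPKM over the same 6 libraries, so the tests of neighbours only describe how steady it was. In 7 of the 9 pairs of neighbours in this order, the order was the same in 6 of 6 libraries (exact sign-flip permutation test over libraries, two-sided, p = 0.0312, the smallest value that 6 libraries allow; 0.0402 after Benjamini-Hochberg adjustment over the 9 pairs). The order of Anxa6 over S100a11 held in 3 of 6 libraries and that of S100a6 over Anxa5 in 5 of 6, and neither pair differed beyond its spread (exact sign-flip permutation test, adjusted p = 0.5 and 0.0703). FPKM uses the length of the authors' gene model, which is 800 bases for Lgals1, 511 bases for S100a11 and 4087 bases for Anxa2, so an order between genes rests on those lengths too.

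The S100 genes come first. All 4 lie on mouse chromosome 3 on the plus strand (mm10), in pairs that lie close together. S100a4 (ENSMUSG00000001020; 90603771 to 90606045) ends 6.84 kb before S100a6 (ENSMUSG00000001025; 90612882 to 90624181). S100a11 (ENSMUSG00000027907; 93520488 to 93526287) ends 28.8 kb before S100a10 (ENSMUSG00000041959; 93555080 to 93564643). S100a4 and S100a6 lie close together and differ in level, and S100a11 varied among libraries more than any member but S100a4, so their promoters are shown here from RefSeq's GRCm38.p6 table, 250 bases before to 50 bases after the start, 5′ to 3′ on the plus strand. Capitals mark matches on either strand to the letters of a TATA box, TATAAA; of a CCAAT box; of a GC box, GGGCGG; of the nuclear receptor half-site that RORα also binds, AGGTCA; or of an AP-1 site, TGANTCA.

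S100a4 promoter, chr3:90603520-90603819: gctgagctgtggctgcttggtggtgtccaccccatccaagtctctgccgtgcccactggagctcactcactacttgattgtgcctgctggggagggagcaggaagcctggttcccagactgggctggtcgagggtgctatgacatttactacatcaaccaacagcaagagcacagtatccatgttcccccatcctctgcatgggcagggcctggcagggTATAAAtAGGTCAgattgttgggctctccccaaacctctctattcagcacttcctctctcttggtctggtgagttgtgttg

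S100a6 promoter, chr3:90612644-90612943: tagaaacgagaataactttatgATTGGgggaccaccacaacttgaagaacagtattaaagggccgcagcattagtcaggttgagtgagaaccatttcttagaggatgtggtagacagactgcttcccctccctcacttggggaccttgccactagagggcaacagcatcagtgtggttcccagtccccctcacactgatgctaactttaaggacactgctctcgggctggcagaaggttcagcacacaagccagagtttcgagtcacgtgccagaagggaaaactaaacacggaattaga

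S100a11 promoter, chr3:93520246-93520545: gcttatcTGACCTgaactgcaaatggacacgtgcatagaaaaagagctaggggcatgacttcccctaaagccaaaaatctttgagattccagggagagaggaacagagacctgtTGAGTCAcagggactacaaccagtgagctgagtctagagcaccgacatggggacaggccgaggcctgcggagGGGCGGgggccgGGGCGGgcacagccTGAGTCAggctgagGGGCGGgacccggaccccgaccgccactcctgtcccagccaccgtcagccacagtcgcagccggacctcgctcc

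In the S100a4 window, TATAAA begins 31 bases and AGGTCA 24 bases before the start, and the 2 matches do not overlap. The S100a6 window held a CCAAT match that begins 228 bases before the start, on the opposite strand. The S100a11 window held 3 GGGCGG matches, 2 TGANTCA matches and an AGGTCA match on the opposite strand that begins 243 bases before the start. Of the 7 members with a promoter in the table, 3 held TATAAA, 2 CCAAT, 3 GGGCGG, 2 AGGTCA and 2 TGANTCA. Over all 32851 promoters of 300 bases the shares were 13.6% for TATAAA, 37.4% for CCAAT, 35.7% for GGGCGG, 16.3% for AGGTCA and 7.81% for TGANTCA. S100a10, Anxa6 and Lgals1 had no entry. A match of letters is a description and not a binding site.

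S100a4 encodes a protein that binds non-muscle myosin IIA, and it was the lowest of the 10. It stood at 18.5, 12.1 and 18.1 CPM in tamoxifen replicates 1, 2 and 3, against 12.0, 15.5 and 33.8 CPM in oil replicates 1, 2 and 3. Oil replicate 3 was the highest of the 6 libraries and the groups overlapped. From 73 to 183 counts per library, the means were 16.3 ± 3.60 CPM in tamoxifen and 20.4 ± 11.7 CPM in oil, a log2 fold change of -0.33 (SE 0.40, 95% interval -1.21 to 0.55; edgeR, adjusted p = 0.999). The direction rested on a single library. Without oil replicate 3 the log2 fold change was 0.23 (edgeR, adjusted p = 0.861). Gm42674, a gene annotated as protein-coding on the same strand, covers 51.7% of the exon bases of S100a4 and had no row of counts. The sources used here do not say how reads on the shared bases were counted. The effect of this overlap on the value of S100a4 was not tested.

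S100a6, or calcyclin, encodes the S100 protein that binds calcyclin-binding protein. It stood at 302, 223 and 323 CPM in tamoxifen and at 201, 205 and 302 CPM in oil. The highest and the lowest library came from different groups, but oil replicate 3 lay level with tamoxifen replicate 1. The log2 fold change was 0.26 (SE 0.21, 95% interval -0.21 to 0.73), and S100a6 had the smallest p of the 10 genes (edgeR, unadjusted p = 0.251, adjusted p = 0.999).

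S100a10 encodes p11, an S100 protein that has lost calcium binding and holds annexin A2 in a heterotetramer. It stood at 794, 633 and 835 CPM in tamoxifen and at 541, 505 and 857 CPM in oil. Oil replicates 1 and 2 were the lowest of the 6 libraries and oil replicate 3 the highest. The means were 754 ± 107 CPM in tamoxifen and 634 ± 194 CPM in oil, a log2 fold change of 0.25 (SE 0.22, 95% interval -0.23 to 0.73; edgeR, adjusted p = 0.999).

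S100a11 encodes a partner of annexin A1. It stood at 297, 204 and 291 CPM in tamoxifen and at 172, 184 and 333 CPM in oil, with the same arrangement of libraries as S100a10. The log2 fold change was 0.20 (SE 0.26, 95% interval -0.38 to 0.77; edgeR, adjusted p = 0.999). Its highest library was 1.94 times its lowest. Stretches of 297 bases of S100a11 transcripts match the processed pseudogenes Gm12854 and Gm7665 at 99.0% and 98.7% identity, and the sources used here do not say how reads with several matches were counted.

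Leaving out a library moved these 3 estimates in both directions. The lowest were 0.15 for S100a6 without tamoxifen replicate 3, 0.11 for S100a10 without oil replicate 2 and 0.03 for S100a11 without oil replicate 1. The highest came without oil replicate 3, at 0.47 for S100a6, 0.52 for S100a10 and 0.56 for S100a11. Without oil replicate 3 their unadjusted p-values in edgeR were 0.0307, 0.0088 and 0.0159, and their adjusted p-values 0.609, 0.584 and 0.609, so none passed. In that fit 3 of the 10 genes had an unadjusted p under 0.05, where 8.02% of all genes did, and in 6 of the 10 the groups did not overlap, where 26.0% of all genes had groups that did not. Adjusted p-values under 0.05 were reached by 0 of the 10 and by 0.0361% of all genes in that fit. Oil replicate 3 was singled out after its values were seen.

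The annexins come next, and their highest library was 1.24 to 1.41 times their lowest, against 1.60 to 2.82 times for the S100 genes. Anxa2 (ENSMUSG00000032231; chromosome 9, 69453620 to 69491795, plus strand) encodes the S100A10 partner, which also bundles actin at membranes and serves as a plasminogen-binding site on cell surfaces. It stood at 3754, 3235 and 3930 CPM in tamoxifen and at 3190, 3128 and 3724 CPM in oil. Tamoxifen was higher on average, and the groups overlapped through tamoxifen replicate 2 and oil replicate 3. The log2 fold change was 0.12 (SE 0.15, 95% interval -0.21 to 0.45; edgeR, adjusted p = 0.999). The interval runs from 0.867-fold to 1.36-fold. Its promoter is shown because Anxa2 is the most abundant annexin, with capitals as above.

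Anxa2 promoter, chr9:69453433-69453732: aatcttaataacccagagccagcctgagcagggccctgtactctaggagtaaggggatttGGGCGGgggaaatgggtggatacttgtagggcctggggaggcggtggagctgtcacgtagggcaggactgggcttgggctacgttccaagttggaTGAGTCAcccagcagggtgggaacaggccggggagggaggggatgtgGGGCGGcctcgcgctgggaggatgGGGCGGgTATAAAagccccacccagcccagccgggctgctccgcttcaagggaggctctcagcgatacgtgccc

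The Anxa2 window held TATAAA that begins 17 bases before the start, 3 GGGCGG matches and a TGANTCA match that begins 95 bases before the start, and no AGGTCA.

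The ratio of S100a10 to Anxa2, partners in a single complex, does not depend on how libraries are scaled to their totals. It can still move with the length trend of a library, as the models have 1621 and 4087 bases. The ratio was highest in oil replicate 3, where the length slope was -0.08, and lowest in oil replicate 2, where the slope was 0.11. The part of gene length in the ratio was not tested. In FPKM it was 0.533, 0.494 and 0.536 in tamoxifen and 0.428, 0.407 and 0.580 in oil. The tamoxifen ratios lay close together, between the 2 lower oil libraries and oil replicate 3. The means were 0.521 ± 0.0236 in tamoxifen and 0.472 ± 0.0948 in oil (SD, n = 3 each), a log2 difference of 0.16 (p = 0.4 by a two-sided exact permutation test over libraries, in which 3 against 3 cannot go below 0.1). Without oil replicate 3 the log2 difference was 0.32 (exact permutation test, p = 0.2), and every tamoxifen library lay above both remaining oil libraries.

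Anxa1 (ENSMUSG00000024659; chromosome 19, 20373428 to 20390944, minus strand) encodes a glucocorticoid-induced protein that inhibits cytosolic phospholipase A2 and signals through formyl peptide receptors. It stood at 990, 942 and 1166 CPM in tamoxifen and at 896, 861 and 1211 CPM in oil, with a log2 fold change of 0.06 (SE 0.18, 95% interval -0.33 to 0.45; edgeR, adjusted p = 0.999). The tamoxifen libraries all lay within the range of the oil libraries. Anxa5 (ENSMUSG00000027712; chromosome 3, 36448923 to 36475894, minus strand) encodes the phosphatidylserine-binding protein used to stain apoptotic cells. It stood at 273, 244 and 273 CPM in tamoxifen and at 221, 245 and 291 CPM in oil, and had a log2 fold change of 0.06 (SE 0.17, 95% interval -0.31 to 0.43; edgeR, adjusted p = 0.999).

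Anxa6 (ENSMUSG00000018340; chromosome 11, 54979108 to 55033445, minus strand) encodes the largest annexin, with a duplicated core, and its libraries ran in another order than those of the other 9 genes. It stood at 1604, 1619 and 1481 CPM in tamoxifen and at 1642, 1738 and 1401 CPM in oil. Oil replicate 3, the highest library for 7 of the other members, was the lowest here. The log2 fold change was -0.02 (SE 0.15, 95% interval -0.35 to 0.30; edgeR, adjusted p = 0.999), and the interval runs from 0.785-fold to 1.23-fold.

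Of the galectins, Lgals1 (ENSMUSG00000068220; chromosome 15, 78926725 to 78930465, plus strand) encodes galectin-1, which binds glycans on CD45, CD43 and CD7. It stood at 2909, 2616 and 3339 CPM in tamoxifen and at 2754, 2321 and 4022 CPM in oil, 0.270% to 0.326% of all counts in tamoxifen libraries and 0.240% to 0.384% in oil libraries. The oil libraries held both the lowest and the highest value, and all tamoxifen values lay between them. The log2 fold change was -0.04 (SE 0.20, 95% interval -0.49 to 0.41; edgeR, adjusted p = 0.999), and without oil replicate 3 it was 0.21 (edgeR, adjusted p = 0.695).

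Lgals3 (ENSMUSG00000050335; chromosome 14, 47367751 to 47386160, plus strand) encodes galectin-3, the galectin with a collagen-like tail through which it oligomerises. It stood at 1016, 801 and 929 CPM in tamoxifen and at 832, 729 and 1178 CPM in oil, with means of 915 ± 108 CPM in tamoxifen and 913 ± 235 CPM in oil (log2 fold change 0.0036, SE 0.20, 95% interval -0.43 to 0.44; edgeR, adjusted p = 0.999). The ratio of Lgals3 to Lgals1 in FPKM was steady, at 0.10, 0.0878 and 0.0798 in tamoxifen and 0.0867, 0.0901 and 0.0841 in oil. Its log2 difference was 0.03 (p = 0.8 by the same exact permutation test). The models of Lgals3 and Lgals1 have 2787 and 800 bases, and the part of gene length in this ratio was not tested either.

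**Figure D2:**
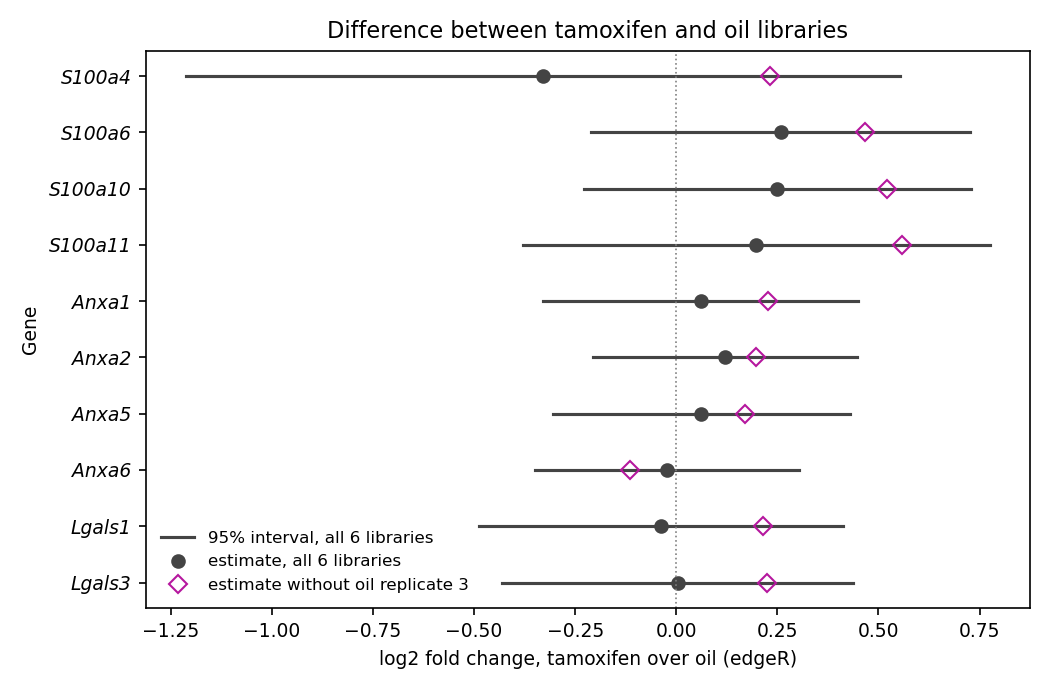
Log2 fold change of tamoxifen over oil for each gene (x axis) from edgeR, with filled points for the fit to all 6 libraries, lines for the 95% interval of that fit and open diamonds for the estimate without oil replicate 3. All 10 intervals cross 0, and without oil replicate 3 the estimate is positive for 9 genes and -0.12 for Anxa6.

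The intervals show what these libraries could and could not resolve. For 6 of the 10 genes the 95% interval lay within a 1.5-fold change in either direction, and for 9 of 10 within a 2-fold change. The narrower bound held all 4 annexins and both galectins, and S100a4 lay outside the wider one. S100a6, S100a10 and S100a11 allowed up to 1.66-fold, 1.66-fold and 1.71-fold the oil level in tamoxifen, and S100a4 allowed anything from 0.432-fold to 1.47-fold. An adjusted p that misses the threshold does not show equal levels.

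The members shared a pattern across libraries that did not follow treatment. In 9 of the 10 genes, all but Anxa6, the 3 lowest libraries were oil replicates 1 and 2 and tamoxifen replicate 2, an arrangement that 15.4% of all genes tested showed. In 7 of the 10 genes oil replicate 3 was the highest library, against 21.4% of all genes tested. This arrangement was noticed in these values, and it is given as a description with no test. Relative to each gene's mean over the 6 libraries, the median over the 10 genes was 0.11, -0.14 and 0.18 (log2 CPM) in tamoxifen replicates 1, 2 and 3 and -0.19, -0.26 and 0.30 in oil replicates 1, 2 and 3, while the median of all genes tested lay between -0.00034 and 0.03 in each library. The 10 genes together took 1.17%, 1.09% and 1.23% of counts in tamoxifen libraries and 1.06%, 1.03% and 1.27% in oil libraries.

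**Figure D3:**
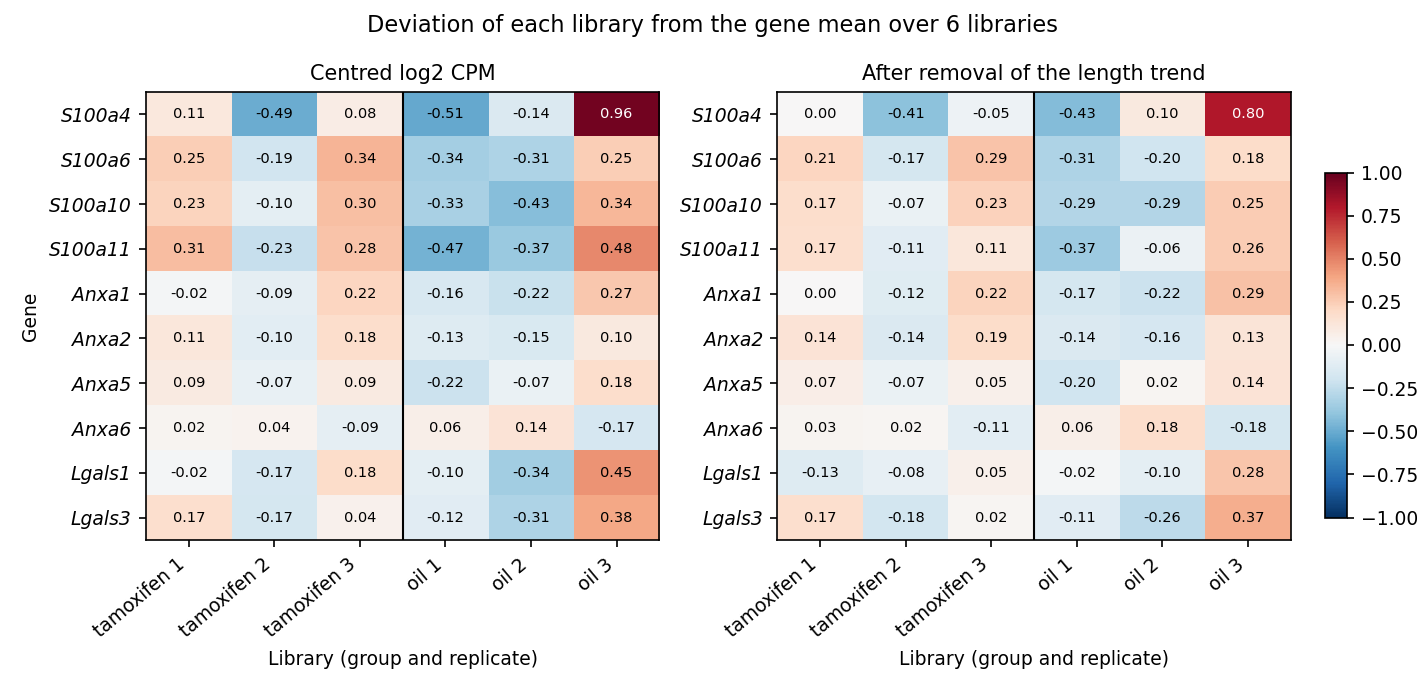
Deviation of each library (columns, tamoxifen left of oil) from each gene's mean over the 6 libraries (rows), in log2 CPM, before (left) and after (right) a linear trend on gene length was taken out of each library; red is above and blue below the mean. In 9 rows of the left panel tamoxifen 2, oil 1 and oil 2 are the lowest, Anxa6 runs the other way, and oil 3 is the highest library for 7 genes in both panels.

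Library properties moved with the pattern. The length slope was negative in tamoxifen replicates 1 and 3 and oil replicate 3, the higher libraries for these genes, and positive in the other 3. Tested genes with models under 1000 bases, 543 in all, had medians of 0.13, -0.15 and 0.16 in tamoxifen and -0.11, -0.29 and 0.34 in oil on the same scale, and 52.3% of them were highest in oil replicate 3. With a linear length trend taken out of each library, an alternative chosen after seeing the data, oil replicate 3 was still the highest for 7 of the 10 genes and for 23.7% of all genes tested. The arrangement with oil replicates 1 and 2 and tamoxifen replicate 2 lowest then held for 7 of the 10 genes, no longer for S100a4 and Lgals1, and for 16.8% of all genes tested. The median over the members was then 0.10, -0.12 and 0.08 in tamoxifen and -0.19, -0.13 and 0.25 in oil. Erythroid and platelet markers, of which 5 of 6 were counted, summed to 200, 74.7 and 233 CPM in tamoxifen and 136, 3.48 and 570 CPM in oil, an order close to that of the members. Most of this sum was Hba-a1, a haemoglobin gene, at a mean of 126 CPM in tamoxifen and 170 CPM in oil, and Pf4 of platelets had 0 counts in tamoxifen and 2 counts in oil. The part of these markers in the pattern was not tested.

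The spread between libraries was larger than counting error for every member in both groups. The coefficient of variation in tamoxifen was 22.2% for S100a4, 19.7% for S100a11, 12.3% for Lgals1 and 4.83% for Anxa6. In oil it was 57.3% for S100a4, 39.1% for S100a11, 29.2% for Lgals1 and 10.9% for Anxa6. Counting error alone gives 10.6% for S100a4 in tamoxifen and 9.33% in oil, and at most 2.77% for the other 9 genes in either group. These counting errors treat reads as independent molecules, although no molecular identifiers are mentioned in the labels, while the edgeR intervals above include the spread between libraries.

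The genes whose levels ran most like those of the member of each family with the highest mean FPKM were found by the root mean square distance between log2 CPM profiles, centred over the 6 libraries, among 6559 other genes with at least 20 CPM. Among the S100 members this was S100a11, although S100a10 was higher in CPM, at 754 CPM in tamoxifen and 634 CPM in oil against 264 CPM in tamoxifen and 230 CPM in oil for S100a11. For S100a11 they were Fdx1 (0.0384), Gm5148 (0.0429) and Znhit3 (0.0608). S100a10 came 32nd (0.107) and S100a6 59th (0.119) for it. For Anxa2 they were Hmgb1-ps2 (0.0231), Selplg (0.0329), which encodes the selectin ligand PSGL-1, and Cnn2 (0.0350), an actin-binding calponin, and Anxa5 came 89th (0.0734). For Lgals1 they were Ostc (0.0347), Tm2d1 (0.0379) and Idnk (0.0422), and Anxa1 and Lgals3 came 170th and 182nd (0.0990 and 0.101). The nearest members were thus of the same family for S100a11 and Anxa2, and for Lgals1 an annexin lay as close as Lgals3.

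The members made up most of the RNA of their families. They took 82.3% to 85.3% of scaled counts of the listed S100 genes, 96.1% to 96.8% of those of the annexins and 86.7% to 90.2% of those of the galectins, over the 6 libraries. By FPKM the shares were 75.5% to 80.5% for the S100 genes, 95.9% to 96.7% for the annexins and 96.2% to 97.2% for the galectins.

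**Figure D4:**
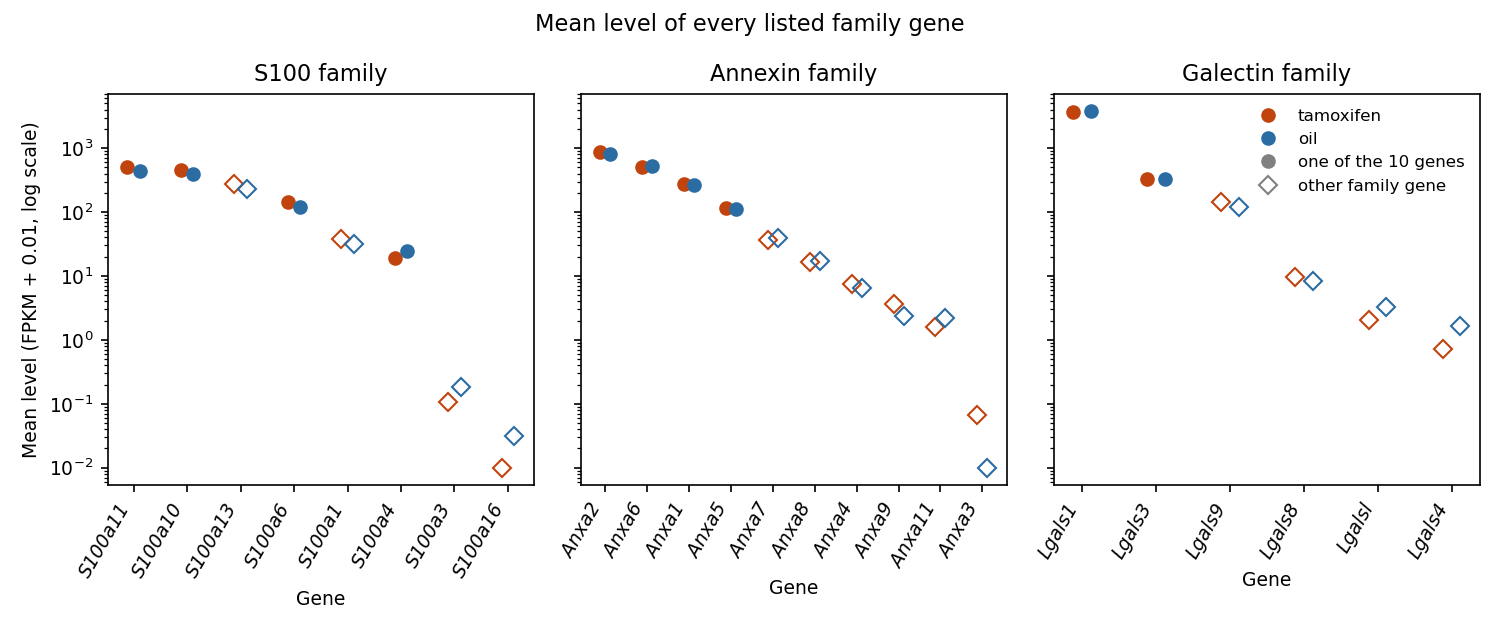
Mean level of each counted gene of the 3 families in tamoxifen (orange) and oil (blue), as FPKM + 0.01 on a log axis, with filled circles for the 10 genes and open diamonds for other family genes. S100a13, at means of 273 FPKM in tamoxifen and 231 FPKM in oil, is the highest of the other family genes, followed by Lgals9 at 143 FPKM in tamoxifen and 120 FPKM in oil.

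Among the other S100 genes, 2 of 12 were tested and 0 passed in edgeR at either the adjusted or the unadjusted threshold. S100a13, which takes part in the release of interleukin-1α and fibroblast growth factor 1, stood at 204, 168 and 218 CPM in tamoxifen and 163, 126 and 209 CPM in oil (log2 fold change 0.25, SE 0.21). S100a1 stood at 47.6, 41.3 and 55.2 CPM in tamoxifen and 35.1, 34.2 and 52.3 CPM in oil (log2 fold change 0.24, SE 0.25). Both had the arrangement of libraries seen for the S100 members, with the lowest values in oil replicates 1 and 2 and tamoxifen replicate 2. S100a8 and S100a9, the calprotectin genes of neutrophils and monocytes, had no row in the table used here.

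Among the other annexins, 5 of 8 were tested, 2 with higher and 3 with lower estimates in tamoxifen (median log2 fold change -0.09; 0.20 without oil replicate 3), and 0 passed at the adjusted or the unadjusted threshold in edgeR. Anxa9 averaged 9.93 ± 2.97 CPM in tamoxifen and 6.35 ± 2.13 CPM in oil (log2 fold change 0.65, SE 0.42), and Anxa11 7.88 ± 3.14 CPM in tamoxifen and 11.1 ± 2.34 CPM in oil (-0.50, SE 0.41). The estimates were 0.24 (SE 0.27) for Anxa4 and -0.11 (SE 0.20) for Anxa7. Among the other galectins, 4 of 8 were tested, 2 higher and 2 lower (median -0.23), and 0 passed at either threshold. That median was -0.44 without oil replicate 3, -0.41 without tamoxifen replicate 2 and -0.11 without oil replicate 1. Lgals9, whose product binds TIM-3, averaged 470 ± 68.6 CPM in tamoxifen and 394 ± 81.2 CPM in oil (0.26, SE 0.19). Lgals4 stood at 0.741 to 4.77 CPM in tamoxifen and 4.35 to 7.39 CPM in oil (-1.19, SE 0.64). The estimates were -0.67 (SE 0.54) for Lgalsl and 0.22 (SE 0.19) for Lgals8.

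Partners and ligands of these proteins were listed as well. Of 17 genes, 12 were tested, 5 higher and 7 lower (median log2 fold change -0.03). In edgeR 0 passed at the adjusted and 1 at the unadjusted threshold. That gene was Tlr4, a receptor for S100 proteins released from cells, which stood at 3.52, 0.994 and 1.34 CPM in tamoxifen and 5.91, 10.4 and 9.60 CPM in oil (log2 fold change -2.14, SE 0.58; edgeR, adjusted p = 0.919), from 32 counts in tamoxifen and 147 counts in oil. Ahnak, a scaffold bound by the S100A10 and annexin A2 complex, averaged 144 ± 39.6 CPM in tamoxifen and 185 ± 39.4 CPM in oil (-0.37, SE 0.23). Ptprc, which encodes the galectin ligand CD45, averaged 1188 ± 278 CPM in tamoxifen and 1505 ± 482 CPM in oil (-0.34, SE 0.24), and Havcr2, which encodes TIM-3, 8.88 ± 2.90 CPM in tamoxifen and 4.58 ± 2.53 CPM in oil (0.95, SE 0.53).

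Genes of the migratory, actin-rich state in which these families are often found were tested in 14 of 14 cases, 6 higher and 8 lower (median log2 fold change -0.09). In edgeR 0 passed at the adjusted and 1 at the unadjusted threshold. Tmsb10, an actin-sequestering thymosin, stood at 1286, 1007 and 1389 CPM in tamoxifen and 407, 867 and 522 CPM in oil (log2 fold change 1.04, SE 0.26; edgeR, adjusted p = 0.766). Lmna, which encodes lamin A/C, averaged 167 ± 42.6 CPM in tamoxifen and 234 ± 47.8 CPM in oil (-0.49, SE 0.23), with groups that did not overlap. The estimates were -0.30 (SE 0.20) for Tagln2 and -0.24 (SE 0.19) for Itgb7. Genes of these lists that passed at the adjusted threshold numbered 0 in every alternative fit as well, DESeq2 and limma included. Tmsb10 did not share the library order of the members, since oil replicate 3 was its second lowest library.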

How the data were processed

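The deposited table gives, per the file headers, whole-number counts and FPKM per gene and library, the authors' mean FPKM per group, and the authors' p-values and q-values for tamoxifen against oil. Per the labels' protocols, RNA was reverse transcribed in the lysate with a SMARTer Ultra Low kit, with PCR of the cDNA. The submitters' processing notes name HISAT2, StringTie and mm10. The sources used here do not state the counter, strand setting or annotation. FPKM followed from the counts: the implied gene length differed by at most 2.7e-05 of itself between libraries. Library totals allow a gene at 0 counts up to 0.474 to 0.567 CPM (3 counts, counting error only).

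Counts were tested with edgeR 4.0.16 (R 4.3.3): TMM factors, the default expression filter, group as the only term, Benjamini-Hochberg adjustment over 10811 genes. Standard errors and 95% intervals came from the quasi-likelihood F statistic, and the fit was tested on simulated data. Alternatives used DESeq2 1.42.0 and limma 3.58.1. Single ratios were compared by exact permutation tests (SciPy 1.17.1). Exon overlaps and near copies (BLAST 2.17.0; 95% identity over 100 bases) were sought in GENCODE M21, where all 10 members had identical coordinates. The members, lists and tests were chosen with earlier results of these data known. Genes named outside the members were, per list, up to 4 with the smallest p, and the 3 nearest profiles; others were named after their values were seen.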

Additional observations from a re-analysis of the deposited data

How the results depend on the processing

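None of the 10 members passed in any of the 16 alternative fits over all genes, and the median over the members stayed between -0.0030 (without oil replicate 1) and 0.22 (without oil replicate 3) in them. The number of genes called over the whole table was 1 in the main test, 6 without a filter on low counts, 18 with DESeq2, 0 with limma on log2(FPKM + 1) and on log2(FPKM + 0.1), and 0 to 6 with a library left out. Whether the replicate numbers pair the libraries could not be settled from the values. Deviations from the group means correlated at -0.07, 0.27 and 0.16 for numbers 1, 2 and 3. Libraries numbered 2 correlated best with each other, and libraries numbered 1 did not. With the replicate block 0 genes were called, and with the length trend as an offset and the replicate block 6. The smallest unadjusted p of a member with the replicate block was 0.0857 in edgeR, for S100a10. In an exact sign-flip permutation test over replicate numbers, the S100a10 to Anxa2 ratio had p = 0.5 and the Lgals3 to Lgals1 ratio p = 1.

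Lgals3 changed sign, to -0.0031 with RLE factors, -0.0031 with DESeq2, -0.0081 without a filter, -0.0199 with the length trend as an offset and -0.00043 with that offset and the replicate block. With a library left out it ran from -0.13 to 0.22, S100a4 from -0.60 to 0.23, Anxa1 from -0.0339 to 0.23, Anxa5 from -0.0252 to 0.17, Anxa6 from -0.12 to 0.0431 and Lgals1 from -0.20 to 0.21. S100a6 ran from 0.15 to 0.47, S100a10 from 0.11 to 0.52, S100a11 from 0.03 to 0.56 and Anxa2 from 0.06 to 0.20. The log2 difference of the Lgals3 to Lgals1 ratio ran from -0.0539 (without tamoxifen replicate 1) to 0.11 and that of S100a10 to Anxa2 from 0.06 to 0.32. With a library left out, median log2 fold changes ran from -0.12 to 0.20 (without oil replicate 3) for the other annexins, from -0.44 to -0.11 for the other galectins, from -0.10 to 0.03 for the partners and ligands, and from -0.0936 to 0.0173 for the migratory genes. The cause of these changes was not tested. Counting error was at most 2.77% for 9 of the members and 10.6% in tamoxifen and 9.33% in oil for S100a4, below the spread between libraries in each case.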
